A study of Homo sapiens with 4 samples.

Results

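The nuclear pore complex and the carriers that pass through it are described here by 47 genes, of 19775 with a probe set of their own. A probe set bright enough to be kept was found for 46 of the 47 and for 10505 genes in all. The 47 are 20 nucleoporins, 3 genes of the Ran cycle and 24 transport receptors (importins, transportins and exportins). The members were named as a family, and each was read by the brightest probe set that carries its symbol alone (mean log2 signal of the 4 arrays). The RNA came from RCM‐1, a human cell line from a well‐differentiated rectal cancer whose sheets lift into fluid‐filled domes, and was hybridised to 4 Affymetrix U133 Plus 2.0 arrays, 1 per duration of methylthioacetic acid (MTA). Cells near confluence had 1 mM MTA during 6 h, 12 h or 18 h and then vehicle medium (acetonitrile) until harvest at 24 h, hence 18 h, 12 h or 6 h without MTA, so time in MTA and time after it cannot be told apart. The control is the array labelled 0 h, and whether its cells were also kept until 24 h is not given in the sources used here. With 1 array per time no test was possible and no error over cultures is known. A lower signal cannot tell fewer expressing cells from less RNA per cell.

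The pore is a ring‐shaped channel across the nuclear envelope. Its scaffold consists of the Y complex, which coats the nuclear and cytoplasmic faces, the inner ring between them and a membrane ring, and nucleoporins rich in phenylalanine and glycine fill the channel. Importins bind cargo in the cytoplasm and release it when they meet Ran loaded with GTP in the nucleus, and exportins bind cargo together with Ran‐GTP and release it once the GTP is hydrolysed outside. Dividing and growing epithelial cells need this traffic for histones, ribosomal proteins, ribosomal subunits and mRNA.

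The letters before the first listed start of transcription are printed for 4 members on which the comparisons turn. TNPO2 and TNPO1 are close relatives that stand apart in the data, NUP98 has probe sets that disagree, and NUP85 has the lowest ratio. Each window holds 300 bases of RefSeq sequence (GRCh38.p14), 250 before the start and 50 from it on, read 5′ to 3′ along the gene's strand. TNPO2 lies at chr19:12723883-12724182 (minus strand), TNPO1 at chr5:72816411-72816710 (plus), NUP98 at chr11:3797497-3797796 (minus) and NUP85 at chr17:75205429-75205728 (plus). Capitals mark the E‐box CACGTG, which MYC binds together with MAX, and, on either strand, the box that NF‐Y binds, CCAAT.
TNPO2: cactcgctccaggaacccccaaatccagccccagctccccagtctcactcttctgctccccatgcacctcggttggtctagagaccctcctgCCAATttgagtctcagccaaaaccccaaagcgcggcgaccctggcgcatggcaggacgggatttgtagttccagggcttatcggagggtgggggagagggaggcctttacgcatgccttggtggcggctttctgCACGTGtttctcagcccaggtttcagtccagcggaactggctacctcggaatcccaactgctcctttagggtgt
TNPO1: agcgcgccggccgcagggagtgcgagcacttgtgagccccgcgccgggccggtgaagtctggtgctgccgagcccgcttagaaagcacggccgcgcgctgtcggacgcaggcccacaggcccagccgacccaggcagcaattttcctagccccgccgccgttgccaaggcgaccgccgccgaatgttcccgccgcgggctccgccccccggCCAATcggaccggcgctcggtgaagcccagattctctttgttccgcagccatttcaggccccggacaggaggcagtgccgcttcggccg
NUP98: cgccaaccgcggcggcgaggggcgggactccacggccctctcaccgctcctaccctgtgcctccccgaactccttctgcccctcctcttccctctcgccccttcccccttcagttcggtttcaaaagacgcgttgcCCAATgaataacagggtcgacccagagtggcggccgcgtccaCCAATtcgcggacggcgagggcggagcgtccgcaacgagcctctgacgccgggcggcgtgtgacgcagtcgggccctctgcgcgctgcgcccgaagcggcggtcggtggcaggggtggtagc
NUP85: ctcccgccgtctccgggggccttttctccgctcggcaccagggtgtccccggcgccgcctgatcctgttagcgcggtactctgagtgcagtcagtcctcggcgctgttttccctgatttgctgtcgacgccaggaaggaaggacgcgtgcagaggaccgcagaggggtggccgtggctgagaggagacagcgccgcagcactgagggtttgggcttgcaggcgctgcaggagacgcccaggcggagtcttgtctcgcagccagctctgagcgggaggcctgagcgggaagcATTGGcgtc
Both strands were searched, also for CCGGAAGT (ETS factors), TTTGGCGC (E2F) and the NRF1 motif, which these 4 windows lack. TNPO2 holds a CACGTG that begins 24 bases before its start, and TNPO1 holds none. CCAAT begins 158 bases before the start in TNPO2, 39 in TNPO1, and 114 and 72 in NUP98, and in NUP85 it stands 41 bases after the start. TNPO2, TNPO1 and NUP98 each have a further start listed that was not searched.

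Promoter windows were matched for 41 of the 47 members, and KPNA4, KPNA5, KPNB1, NUP43, RANBP1 and XPO7 were not matched. CACGTG stood in 7 of them (17.1%), against 10.7% of the windows of 8687 kept genes and 7.43% of all 27305 windows. The 7 are NUP188, NUP50, RAN, KPNA3, IPO4, IPO7 and TNPO2, and their median log2 ratio at 18 h was −0.73, against −0.77 for the other 34 members with a window. CCAAT stood in 19 windows (46.3%), against 37.2% of those of kept genes and 35.7% of all, and its carriers had a median of −0.93, against −0.71 for the members without it. Over all kept genes the medians with and without CCAAT were −0.46 and −0.48. For CACGTG they were −0.55 and −0.47, for CCGGAAGT −0.58 and −0.46, for the NRF1 motif −0.50 and −0.48, and for TTTGGCGC −0.72 and −0.47. CCGGAAGT stood in 7 member windows (17.1%, against 9.4% of kept genes and 4.44% of all) and the NRF1 motif in 3 (7.32%, against 2.47% and 1.36%). TTTGGCGC stood in 1, that of NUP155 (2.44%, against 1.07% and 0.659%). Members with and without CCGGAAGT had medians of −0.76 and −0.75, and those with and without the NRF1 motif −0.88 and −0.75. The matches are descriptions of letters, and no binding was measured.

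The authors deposited MAS5 signals, intensities on a linear scale, and every ratio is the log2 of an MTA signal over the 0 h signal. All kept genes together had medians of 0.11 after 6 h, −0.28 after 12 h and −0.47 after 18 h, so each member is also set against that median. For the 30 members with 2 or more kept probe sets, the 18 h ratios of the 2 brightest ones differed by 0.392 (SD of the differences), and for 4676 genes by 0.479. This is the only measure of error here, and it covers probes, not cultures. Both readings lay on the same side of the median of all genes for 23 of the 30 members, and every kept probe set lay below it for 15. The 3′ to 5′ signal ratio of ACTB was 5.76, 4.76, 5.86 and 6.45 at 0, 6, 12 and 18 h. GAPDH had 3′ to 5′ ratios of 1.64, 1.44, 1.53 and 1.63, nearly equal at 18 h and 0 h. Their part in the ratios was not tested. Of 13 markers of colorectal epithelium all 13 were kept, with a summed signal of 44178 at 18 h, against 63413 at 0 h. Of 7 fibroblast markers only COL1A1 was kept, at 144 after 18 h and 7.64 at 0 h, of 4 immune markers none and of 3 endothelial markers PECAM1 (28.6 after 18 h, 41.1 at 0 h).

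Most pore and transport genes had lower signals after 18 h of MTA than at 0 h, and most lay below the median of all genes. At 18 h, 45 of the 47 members had a log2 ratio below 0, against 78.3% of all genes, and 37 (78.7%) lay below the median of all genes, whereas a median splits the kept genes evenly. The median of the members was −0.77, a difference of −0.30 from that of all genes (−0.47). Below −1, a 2‐fold lower signal, lay 13 members (27.7%), against 15.8% of all genes. Below −1.5 lay 2 members (4.26%), NUP85 and NUP98, against 3.19% of all genes, a share near the background. Above 0 lay 2 members (4.26%), KPNA5 and IPO11, against 21.7%, and none lay above 1, against 3.15%. IPO11, an importin, had signals of 1.43, 2.27, 1.19 and 1.47 at 0, 6, 12 and 18 h, was the 1 member too dim to be kept (lowest mean signal kept, 34.0). It is counted among the 47, while the shares of all genes cover kept genes alone. Over the 46 kept members the median at 18 h was −0.77, with the same 13 below −1 and with KPNA5 as the 1 above 0. With a stricter filter, the 10000 brightest probe sets, the median of all genes at 18 h was lower (−0.556). The 42 members that passed it had −0.773, a smaller difference of −0.217. Among them 12 were below −1, against 17.6% of all genes.

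The size of the ratios depended on how the arrays were scaled. The members' median at 18 h was below 0 in each of 6 scalings, between −0.77 and −0.20, but the signs of some members turned. At 18 h, 37 members were below 0 after median centring, 36 with each array divided by its trimmed mean, 35 after quantile normalization, 40 relative to poly‐A controls and 45 relative to hybridization controls. The median of all genes was then −0.02, 0.05, 0.01, −0.21 and −0.42, in the same order. Where it is near 0, the background is no longer the 78.3% of all genes below 0 seen with the deposited scaling, but near an even split. In every one of these 5 scalings and the deposited one 33 members stayed below 0, KPNA5 stayed above 0, and the sign of 13 turned, the dim IPO11 among them. The matching shares of all genes are not given here. The count below −1 was 2 of 47 after median centring, against 3.74% of all genes. Scaling to an array's median, trimmed mean or controls shifts every gene alike, so it cannot move the difference between the members' median and that of all genes (−0.30). Quantile normalization could, and gave −0.21.

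**Figure D1:**
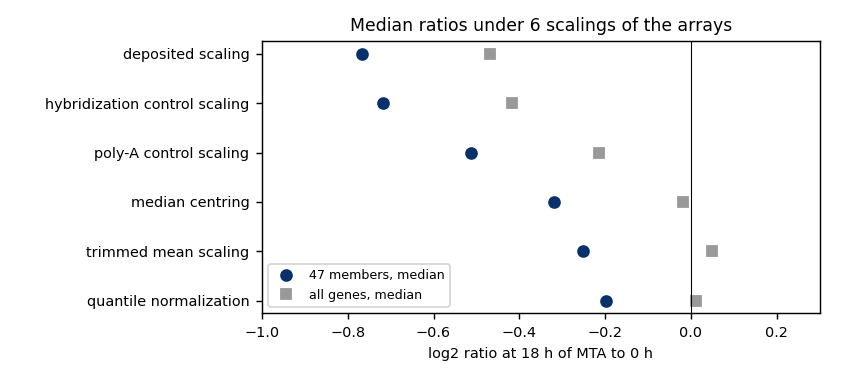
Median log2 ratio of the 18 h array to the 0 h array, shown as circles for the 47 members and as squares for all kept genes, with a row for each scaling of the arrays. Both medians move with the scaling (between −0.77 and −0.20 for the members). The gap between circle and square could differ by construction only under quantile normalization, where it is −0.21, against −0.30 in the other rows.

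At 6 h the members' median was −0.06 (all genes 0.11), with 26 members below 0 and 21 above, against 62.3% of all genes above. None was below −1, against 0.476% of all genes, or below −1.5, against 0.019%, and none was above 1, against 4.68%. At 12 h the median was −0.44 (all genes −0.28), 43 members were below 0, 4 were above 0, against 28.4% of all genes, none was above 1, against 3.28%, and 4 were below −1, namely NUP98, TNPO2, RCC1 and NUP35, against 6.29% of all genes. NUP98 alone was below −1.5 at 12 h, against 0.942%. These counts too depend on the scaling. In the 5 other scalings between 27 (hybridization controls) and 40 (poly‐A controls) members were below 0 at 6 h. The median of all genes was 0.09 and −0.09 in these scalings. At 12 h the number of members below 0 was between 33 (quantile normalization) and 43 (poly‐A controls), with all-gene medians of 0.02 and −0.31. Over all 6 scalings the sign turned for 14 members at 6 h and for 12 members at 12 h. With the deposited scaling the signal was lower on each later array than on the one before for 25 members (53.2%), against 27.5% of all genes. Such steps, also those of single genes below, can change with the scaling. After median centring the ratios at 6, 12 and 18 h were −0.26, −0.19 and −0.17 for RAN and −0.49, −0.46 and −0.83 for NUP93. NUP85 still fell at each step (−0.34, −0.47 and −1.08). The ratios at 6, 12 and 18 h share the 0 h array and are not independent.

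**Figure D2:**
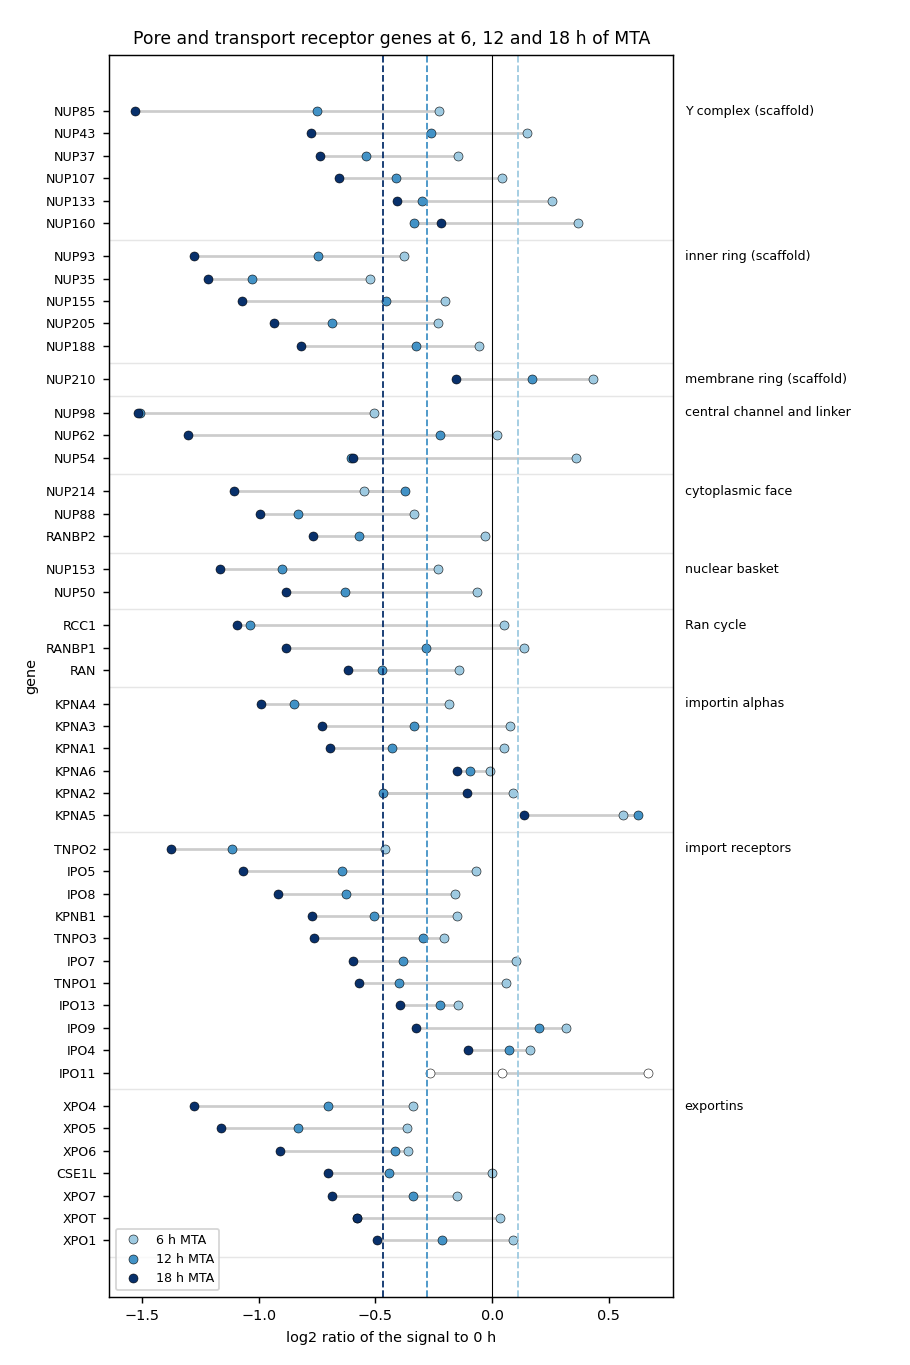
Log2 ratio of the signal at 6, 12 and 18 h of MTA to 0 h (x axis) for the 47 genes (rows, by role, the lowest at 18 h on top of each role), with open circles for IPO11, which was too dim to be kept, and dashed lines at the median of all genes for the time of the same colour. With the deposited scaling only KPNA5 and IPO11 lie right of 0 at 18 h (others turn under other scalings), and the inner ring lies left of the dashed lines at each time.

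The Y complex was spread widely at 18 h. NUP85, a subunit of its short arm, had signals of 615, 526, 366 and 213 at 0, 6, 12 and 18 h. Each array was lower than the one before, and the log2 ratio at 18 h was −1.53, a 2.89‐fold lower signal. NUP160, a large subunit of the same complex, had 495, 639, 393 and 426. It was highest at 6 h, and its ratio at 18 h of −0.22 lay above the median of all genes and turned positive in 4 of the 5 other scalings. NUP43, NUP37 and NUP107 had −0.78, −0.74 and −0.66, and NUP133 had −0.41, a sign that turns after median centring, trimmed mean scaling and quantile normalization. The 6 genes had a median of −0.70, with 1 below −1 (16.7%), against 15.8% of all genes. Every Y complex member has 1 kept probe set, so none could be checked against another bright one.

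All 5 inner ring genes were below the median of all genes at 6, 12 and 18 h. NUP93, which links the inner ring to the channel, had signals of 548, 423, 327 and 226 at 0, 6, 12 and 18 h. The signal was lower at each step, with a log2 ratio of −1.28 at 18 h. NUP188, a large solenoid protein that binds NUP93, had 266, 256, 213 and 151. Its ratio of −0.82 was the highest of the 5, and was still below that of all genes (−0.47). NUP35, which anchors the ring to the membrane, had −0.52, −1.03 and −1.22 at 6, 12 and 18 h. NUP155, also next to the membrane, had −1.07 at 18 h, and NUP205, the relative of NUP188, had −0.93 and, on a dimmer kept probe set, −0.78. The median of the inner ring was −1.07, with 3 of 5 below −1, against 15.8% of all genes. All 5 kept their negative sign in every scaling.

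NUP210, the membrane protein of the lumenal ring, had signals of 241, 326, 272 and 217 at 0, 6, 12 and 18 h. It was highest at 6 h, with a log2 ratio of 0.43 at 6 h but −0.15 at 18 h. None of its 5 kept probe sets was below the median of all genes at 18 h, where they ranged from −0.20 to 0.60, and the sign at 18 h turned in 4 of the 5 other scalings.

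In the channel, NUP98 carries repeats that bind transport receptors, and its gene also encodes NUP96, a Y complex subunit cut from the same precursor. Its brightest probe set had signals of 445, 314, 157 and 155 at 0, 6, 12 and 18 h. The signal was already low at 12 h, and the log2 ratio at 18 h was −1.52. Its other kept probe sets had −1.01 and −0.37 at 18 h. The 3 readings of NUP98 disagree, and the last one lies above the median of all genes. NUP62, which lines the channel, had log2 ratios of 0.02, −0.22 and −1.30 at 6, 12 and 18 h, and −1.18 on a second kept probe set at 18 h. NUP54, its partner, had signals of 1051, 1349, 691 and 695 and a ratio of −0.60. Its level at 12 h differed little from that at 18 h.

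On the cytoplasmic face, NUP214, a docking site for exportin 1 and for mRNA, had signals of 211, 144, 163 and 97.9 at 0, 6, 12 and 18 h. The 12 h array was above the 6 h array, and the log2 ratio at 18 h was −1.11, with −1.19 and 0.26 on its other kept probe sets. NUP88, which binds NUP214, had −0.996 at 18 h, just outside the count of those below −1. RANBP2, the filament protein that binds Ran and acts as a SUMO ligase, had signals of 1106, 1081, 745 and 649. Its ratio was −0.77, and its 4 kept probe sets ranged from −1.17 to −0.70. Transcripts of the RGPD genes, copies of RANBP2, can be read by its probes.

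In the nuclear basket, NUP153 had signals of 2107, 1797, 1128 and 938 at 0, 6, 12 and 18 h, lower at each step, and a log2 ratio of −1.17. NUP50, which helps to free importin alpha from its cargo, had 1199, 1145, 775 and 649. Its ratio was −0.88, but its second brightest probe set had −0.17, above the median of all genes. The 8 nucleoporins outside the scaffold all lay below the median of all genes at 18 h, with a median of −1.05.

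The 3 genes of the Ran cycle were below the median of all genes at 18 h. RCC1, the exchange factor that loads Ran with GTP on chromatin, had signals of 319.6, 331, 156 and 150.0 at 0, 6, 12 and 18 h. It stood near the 0 h signal at 6 h and low at 12 and 18 h, with a log2 ratio of −1.09 at 18 h and −0.31 on a dimmer kept probe set. RAN, the GTPase itself, had 8033, 7288, 5792 and 5231. Each array was lower than the one before, and the ratio at 18 h was −0.62, with −0.87 on its other probe set. RANBP1, which assists GTP hydrolysis by Ran, had −0.88, and −0.56 on a dimmer kept probe set.

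Importin alphas, the adaptors that hold the nuclear localisation signal of a cargo, had a median of −0.42 at 18 h. Of the 6, 3 lay below the median of all genes and none below −1, against 15.8% of all genes. KPNA4 had signals of 2585, 2276, 1436 and 1299 at 0, 6, 12 and 18 h. The log2 ratio at 18 h was −0.99, and its 4 kept probe sets ranged from −1.24 to −0.73. KPNA5 had 109.6, 162, 169 and 121. All 3 MTA arrays were above the 0 h array, with ratios of 0.56, 0.62 and 0.14, and a second kept probe set had 0.33 at 18 h. KPNA3, the close relative of KPNA4, had −0.73, and KPNA1, of the same subfamily as KPNA5 and KPNA6, had −0.69 and as low as −1.21 over 6 kept probe sets. KPNA5 minus KPNA1, a pair picked after the values were seen, was 0.83, and their kept probe sets did not overlap. KPNA2 and KPNA6 had −0.11 and −0.15, signs that turn in 4 of the 5 other scalings, and KPNA6 had values down to −1.03 on other kept probe sets.

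Import receptors of the importin beta family ranged from −1.38 to −0.10 among the 10 that were kept. TNPO2, a transportin that brings RNA‐binding proteins into the nucleus, had signals of 809, 589, 373 and 312 at 0, 6, 12 and 18 h. The signal was lower at each step, and the log2 ratio at 18 h was −1.38, a 2.59‐fold lower signal. TNPO1, its close relative, was set beside it after the values had been seen and had 2441, 2542, 1849 and 1646. Its 6 h array stood above 0 h, a sign that turns after median centring and with trimmed mean and poly‐A control scaling. Its ratio at 18 h was −0.57, a sign that turns after quantile normalization. The 3 kept probe sets of TNPO2 ranged from −1.38 to −0.90 and the 7 of TNPO1 from −0.74 to −0.28, so the readings did not overlap. The ratio of TNPO2 minus that of TNPO1 was −0.81, a description of a pair picked with its values known.

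**Figure D3:**
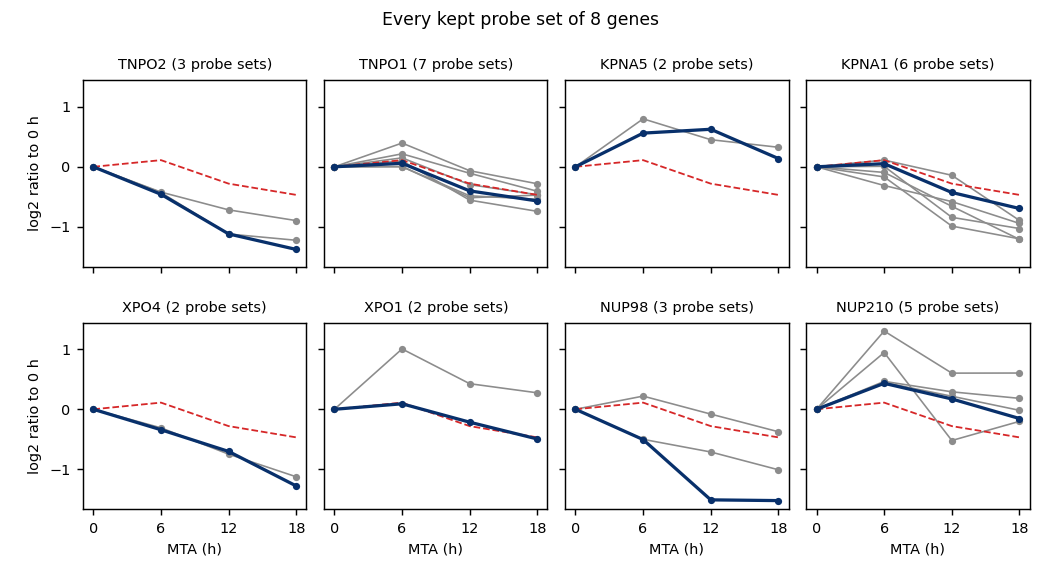
Log2 ratio to 0 h (y axis) against hours of MTA (x axis) for every kept probe set of 8 genes, where a thick dark line stands for the brightest probe set, grey lines for the others and the dashed line for all genes (median). The lines of TNPO2 and XPO4 lie below the dashed line and those of KPNA5 above it at each time, while the 3 lines of NUP98 and the 2 of XPO1 separate.

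IPO5, an importer of ribosomal proteins and histones, had a log2 ratio of −1.07 at 18 h, and between −1.70 and −0.82 over 4 kept probe sets. IPO8 had −0.92. KPNB1, the carrier that works with the importin alphas, had −0.77, with 5 of its 6 kept probe sets below the median of all genes. TNPO3, the importer of SR splicing factors, had −0.76, but 0.05 on a dimmer kept probe set. IPO7, another importer of ribosomal proteins, had −0.59, with a sign that turns after quantile normalization. IPO13, which works in both directions, IPO9, an importer of histones, and IPO4 had −0.40, −0.32 and −0.10, all above the median of all genes and with signs that turn under other scalings.

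All 7 exportins lay below the median of all genes at 18 h, XPO1 barely. XPO4, which exports the translation factor eIF5A, had signals of 771, 609, 474 and 318 at 0, 6, 12 and 18 h. Each array was lower than the one before, and the log2 ratio at 18 h was −1.28, with −1.12 on its other kept probe set. XPO1, the exporter of proteins with a leucine‐rich signal, had 5912, 6299, 5094 and 4198. It stood above 0 h at 6 h, but not after median centring or with poly‐A control scaling. Its ratio at 18 h of −0.49 was near that of all genes. The sign at 18 h turned after quantile normalization and trimmed mean scaling, and a dimmer kept probe set had 0.27. XPO4 minus XPO1, likewise picked later, was −0.78, with no overlap between their kept probe sets. XPO5, the exporter of microRNA precursors, had −1.16, with −1.40 and −1.58 on its other kept probe sets. XPO6, which exports actin, had −0.91 and −1.15, and CSE1L, which returns importin alpha to the cytoplasm, had −0.70, and as low as −1.20 over 4 kept probe sets. XPO7 had −0.69, and −0.27 on a dimmer kept probe set. XPOT, the exporter of transfer RNA, had −0.58, a sign that turns after quantile normalization, and −1.03 on its other kept probe set.

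The median of the scaffold was below that of the receptors at 18 h, with wide overlap, and the size of the gap depended on which genes were counted as scaffold. The 12 scaffold genes had a median log2 ratio of −0.80 at 18 h and the 24 receptors one of −0.69, a difference of −0.11. Further kept scaffold genes outside the 47 lay lower, with −1.13 for SEH1L, −1.05 for AHCTF1 and −0.66 for SEC13 of the Y complex and −1.43 each for NDC1 and POM121C, membrane nucleoporins like NUP210 (−0.15). With these 5 added after the data had been seen, the scaffold median was −0.93 and the difference −0.24. The scaffold of 12 ranged from −1.53 to −0.15 and the receptors from −1.38 to 0.14, so the ranges overlapped nearly throughout. At 6 h the medians were −0.10 and −0.00, a difference of −0.10, and at 12 h they were −0.43 and −0.41, a difference of −0.03. At 18 h 4 of 12 scaffold genes (33.3%) and 4 of 24 receptors (16.7%) were below −1, against 15.8% of all genes, so the receptors were near the background. Over all 20 nucleoporins the median was −0.91, with 8 below −1 and 17 below the median of all genes, and minus the receptors this gave −0.22. The inner ring (−1.07) and the Y complex (−0.70) differed by more within the scaffold than the scaffold did from the receptors. No test of any of these differences could be made.

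**Figure D4:**
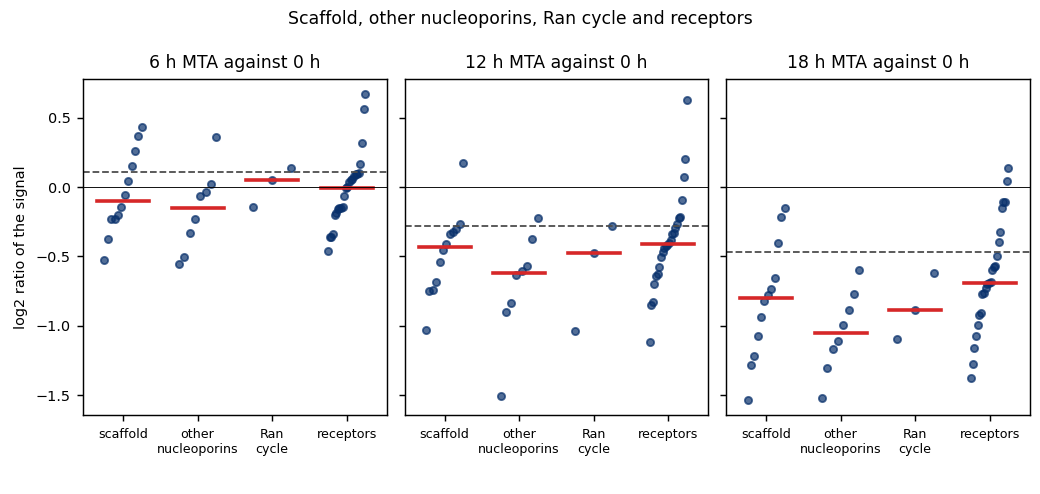
Log2 ratio of the signal to 0 h for the 12 scaffold genes, 8 other nucleoporins, 3 Ran cycle genes and 24 receptors, in a panel for each time, with a point per gene in order of its value. Thick bars are the medians of the groups, and the dashed line is that of all genes. At 18 h the medians of scaffold and receptors, −0.80 and −0.69, lie close together and all 4 bars lie below the dashed line (−0.47).

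Other genes of the pathway were listed by role. Of 12 further pore genes 11 were kept, all 11 were below 0 at 18 h, 6 were below −1 (15.8% of all genes were) and 2 below −1.5 (3.19%), with a median of −1.05. These 11 include the 5 further scaffold genes named above, of which 4 were below −1. AAAS, which encodes the pore protein aladin, had −2.00, with a signal of 17.2 at 18 h that is below the lowest mean signal kept. NUP58, the partner of NUP62 and NUP54 in the channel, had −1.53, and TPR, the filament of the nuclear basket, −0.12. Of 12 other genes that act with Ran or with karyopherins 9 were kept, with a median of −0.69 and 2 below −1 (15.8% of all genes). LTV1, which helps small ribosomal subunits to mature, had −1.09, RANBP17, an exportin relative, −1.004, and RANGAP1, which triggers GTP hydrolysis by Ran, −0.32. Of 24 genes of mRNA export 19 were kept, all 19 were below 0 (78.3% of all genes were), 5 were below −1 (15.8%) and 3 below −1.5 (3.19%), with a median of −0.72. NXT1, the partner of the mRNA exporter NXF1, had −1.74, ALYREF, an adaptor that hands mRNA to NXF1, −1.67, and THOC5, of the THO complex, −0.09. Of 8 genes of the SUMO pathway, which acts at the pore, only 3 had a probe set of their own: SENP1, SUMO3 and SAE1, at −1.25, −0.81 and −0.36. Median centring subtracts −0.45 at 18 h, so not all kept pore and mRNA export genes stay below 0. It turns the signs of TPR and GLE1 among the pore genes, and of RANGAP1 and RANBP3 among those of Ran and karyopherins. Among the mRNA export genes it turns those of THOC5, THOC2, NXT2, ENY2, SEM1 and POLDIP3, and in the SUMO pathway that of SAE1.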

How the data were processed

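RNA of RCM‐1 cells was hybridised to 1 array for each of 4 durations of MTA. The values the authors deposited are linear MAS5 intensities from Affymetrix Expression Console, per the labels. Neither its version nor its scaling target is stated in the sources used here. Control probe sets (62) were left out. Probe sets were named through GEO's platform annotation, with symbols updated by RefSeq GRCh38.p14. Those with several symbols (1801) or none (11721) named no gene. The 20954 probe sets with the highest mean log2 signal were kept, as many as the paper calls detected. A gene was read by its brightest probe set, and ratios were taken without a pseudocount. The call rules were log2 ratios below −1 and below −1.5. No test was made, since each time has a single array, and precision is limited by this number. Signals on every array are given for members below −1.5 or above 0 at 18 h and for the lowest and highest of each role. TNPO1 was added after its values were seen. Members and lists were chosen with earlier results of these data known. Of the lists of other genes the lowest 2 kept genes and the highest 1 at 18 h were named. Further scaffold genes and genes whose sign turned after median centring were named as well. POM121, RANBP3L and DDX19B, of the lists of other genes, were too dim to be kept. The calculation was tested on simulated data. Python 3.11.15, NumPy 2.4.6, pandas 2.3.3 and matplotlib 3.10.9 were used.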

Additional observations from a re-analysis of the deposited data

How the results depend on the processing

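No paired analysis was possible because each time has 1 array, and for the same reason no array could be left out. The alternatives were 2 other filters, 5 scalings, a pseudocount of 2.902 and 4 other choices of probe set, and for the scaffold against the receptors 5 other memberships or summaries. Adding 5 further scaffold genes and leaving out the dim IPO11 were chosen after seeing the data. Of 161 values of group results under an alternative, 14 moved by more than the tolerance set (for medians the SD between probe sets of a gene, for counts 1.5 times). A direction was called only for medians and differences beyond 1.5 in size, which none reached, so no turn could be found. That SD (0.408 at 6 h, 0.421 at 12 h and 0.479 at 18 h) exceeds each scaffold minus receptors difference. A sign that turned there was therefore not counted as moved. The members' median at 18 h was −0.20 after quantile normalization and −0.25 with trimmed means. The number below −1, which was 13, was 2 after median centring, 1 after quantile normalization, 2 with trimmed means and 6 relative to poly‐A controls. The shares of all genes there were 3.74%, 3.86%, 3.07% and 7.47%, in the same order. A count of 2 (4.26% of the members) was therefore near the background, and the count of 1 was no excess. In the 5 other scalings (median centring, quantile normalization, trimmed means, poly‐A and hybridization controls) between 0.581% and 2.8% of all genes were below −1.5. The number of members below −1.5, which was 2, was 0 in each of these scalings. It was 1 with the mean over kept probe sets, with the probe set of the highest minimum, and without probe sets of suffix _s_at or _x_at. Scaffold minus receptors at 18 h ranged from −0.41 (second brightest probe sets) to −0.08 (stricter filter) over 19 alternatives. Of these, 4 shift all genes alike and dropping the filter leaves the chosen probe sets unchanged, so these cannot move it. The value of −0.41 rests partly on dim signals. The second brightest probe sets of NUP37, NUP43, NUP133, NUP160, NUP93 and NUP188 were too dim to be kept. On the receptor side that of IPO8 was too dim as well (log2 ratio 2.27 at 18 h), and the dim IPO11 was still counted. The difference was of either sign at 6 h (−0.21 to 0.05) and 12 h (−0.17 to 0.04). Signals below the lowest mean kept, as for IPO11 and AAAS at 18 h, carry little precision.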
